A study of Mus musculus with 10 samples.

Results

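The enzymes described here make asparagine, make or break down glutamine and glutamate, and move amino groups between amino acids. They were taken as a list of 9 genes by symbol: Asns, Asnsd1, Gls2, Glul, Glud1, Got1, Got2, Gpt2 and Bcat1. All 9 were among the 21849 genes of the count table, and 8 had enough counts to be tested among 12929 tested genes. The exception, Asnsd1, was listed at 0 in every library. The tumours came from CT26, a colon carcinoma cell line of mouse, implanted under the skin of BALB/c mice. Mice aged 5 weeks at the start were fed either a diet without arginine but matched in calories or a normal diet. Each diet began 1 week before the cells were implanted, and all tumours were taken on day 20. RNA of 5 arginine-deficient and 5 normal-diet tumours was sequenced, and the labels name no further allele or agent for either group.

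Asparagine is made from aspartate with the amide nitrogen of glutamine, and glutamine itself is made from glutamate and ammonia. Glutaminases run that last step backwards, and glutamate then passes its nitrogen on through transaminases or enters the tricarboxylic acid cycle as 2-oxoglutarate. When a cell runs short of an amino acid, the kinase GCN2 slows translation and the transcription factor ATF4 is made, and ATF4 is known to switch on Asns and other genes of amino acid supply.

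The libraries held 12013178 to 31530123 counts. Levels are given as CPM, the counts scaled to a common library total by TMM factors, which set the bulk of genes equal between libraries. Differences are log2 fold changes of the arginine-deficient over the normal diet with their standard error (SE), from edgeR's quasi-likelihood test with Benjamini-Hochberg adjustment over all tested genes. Skeletal muscle markers, of which 24 of 25 were detected and Acta1 was at 0 throughout, summed to 9779 CPM of the library total in arginine-deficient replicate 3, to 2619 CPM in arginine-deficient replicate 4 and to 975 CPM in normal-diet replicate 4. In the other libraries they summed to between 78.6 and 218 CPM. Transcripts of the mitochondrial genome made up 9.97% of arginine-deficient replicate 3 and 1.67% to 4.44% of the others. Red blood cell markers, 6 of 7 detected, ran from 56.0 to 106 CPM on the deficient and from 104 to 613 CPM on the normal diet. Of the 11 epithelial and colon markers none was at 0 throughout. Their sum ran from 97.5 to 244 CPM on the deficient and from 209 to 304 CPM on the normal diet, most of it Krt20 with a mean of 206 CPM. The defining genes Epcam, Cdx2 and Vil1 averaged only 0.264, 0.193 and 0.277 CPM over the libraries. Macrophage markers (3129 to 3773 CPM on the deficient, 2809 to 3875 CPM on the normal diet, 13 of 14 detected), T cell markers (49.97 to 72.6 and 22.1 to 82.2 CPM), fibroblast markers (2408 to 4278 and 2921 to 3820 CPM), endothelial markers (201 to 251 and 229 to 282 CPM) and adipocyte markers (39.0 to 279 and 57.5 to 114 CPM) overlapped between diets. In such bulk tumour RNA, fewer cells of a type and less RNA per cell cannot be told apart.

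Of the 8 tested enzymes 6 were higher and 2 lower on the deficient diet, against 50.3% of all tested genes higher. Their median log2 fold change was 0.31, beside a median of 0.0012 over all tested genes. By edgeR 0 of the 8 had an adjusted p under 0.05, a threshold that 0.0541% of tested genes passed. An unadjusted p under 0.05 was reached by 5 of the 8, against 6.74% of tested genes: Asns, Glul, Gpt2 and Bcat1 were higher (3.54% of tested genes) and Gls2 was lower (3.19%). The tumours of the 2 diets were fully separated in 2 of the 8, against 1.65% of tested genes, with Asns higher (0.835%) and Gls2 lower (0.812%). DESeq2 called 1 of the 8, Asns, where it called 0.896% of the genes it adjusted. The limma voom test with sample weights called 4, Asns, Glul, Gpt2 and Bcat1, where it called 2.88% of genes. The members were chosen with earlier results of these data known, so these counts describe the list and are not evidence for it.

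**Figure D1:**
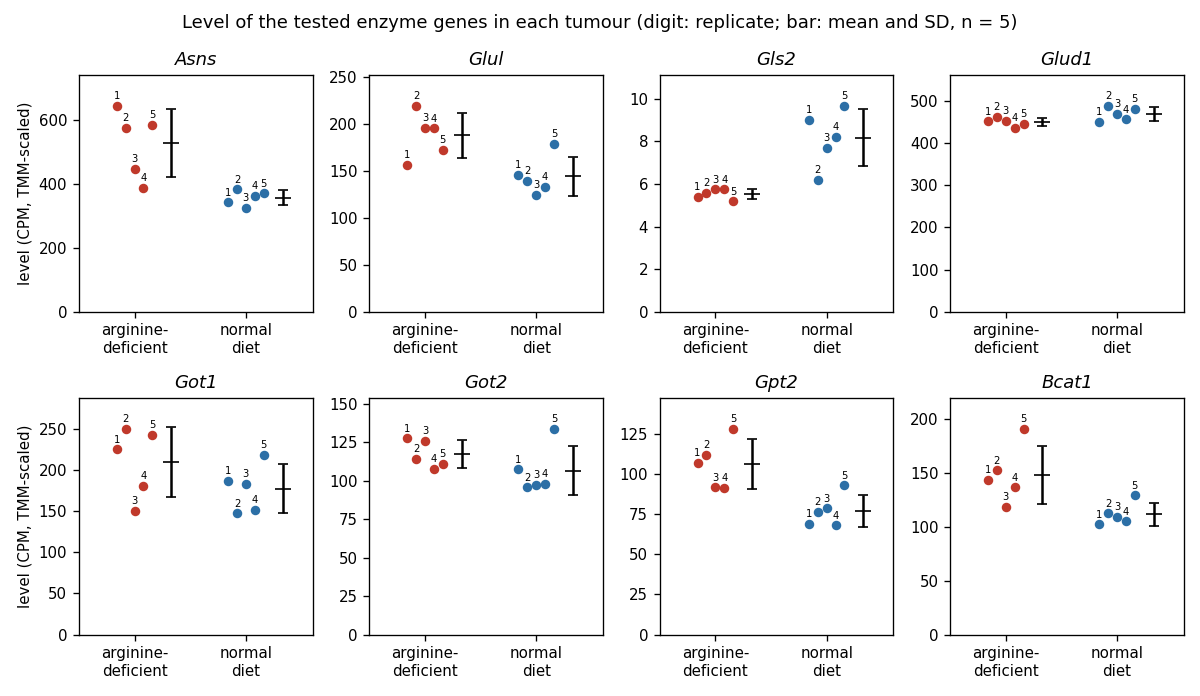
Level of each tested enzyme gene in CPM (y axis, from 0) in the 5 arginine-deficient tumours (red, left) and the 5 normal-diet tumours (blue, right), each point 1 tumour with its replicate number and the bar the mean and SD. The lowest arginine-deficient point of Asns is 387 CPM and the highest normal-diet point is 383 CPM, and Gls2 is separated the other way.

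**Figure D2:**
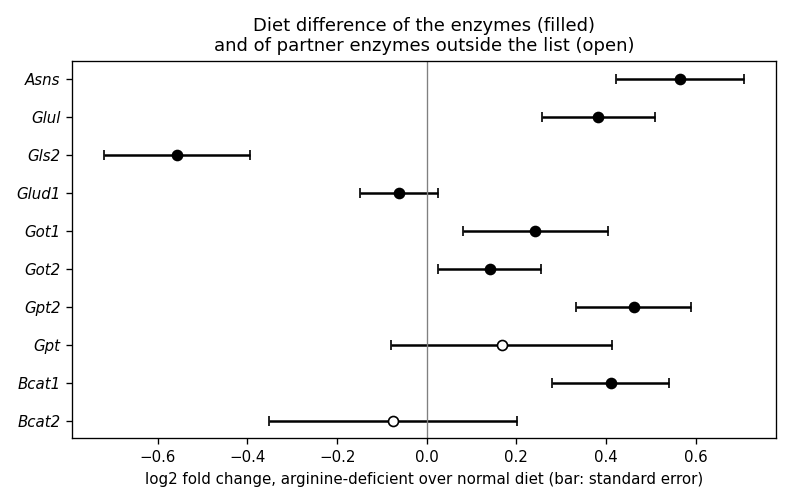
Log2 fold change of the arginine-deficient over the normal diet with its standard error (x axis) for the enzymes of the list (filled) and for the partner enzymes Gpt and Bcat2 (open). Asns has the highest value, 0.57, and Gls2 the lowest, -0.56.

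Asns, asparagine synthetase, was higher in every arginine-deficient tumour than in every normal-diet tumour. It stood at 645, 576, 447, 387 and 584 CPM in arginine-deficient replicates 1 to 5 and at 342, 383, 325, 362 and 371 CPM in normal-diet replicates 1 to 5. The deficient tumours were spread wide, with replicates 1, 2 and 5 far above the normal-diet tumours and replicate 4 only just above the highest normal-diet tumour. Their coefficient of variation was 20.2%, against 6.47% on the normal diet. The difference, 0.57 on the log2 scale (SE 0.14, a 1.48-fold ratio), was the 83rd smallest p of all tested genes, and its adjusted p was 0.283 by edgeR. The lowest deficient values, in replicates 3 and 4, came from the libraries richest in muscle transcripts. Without the 3 muscle-rich libraries the log2 fold change of Asns was 0.76 (SE 0.11, edgeR adjusted p = 0.0471). In that setting 0.139% of all genes were called. It leaves out deficient replicates 3 and 4 and normal-diet replicate 4. Dropping the lowest deficient values raises the deficient mean by itself. With the muscle sum as a covariate the log2 fold change of Asns was 0.62 (adjusted p = 0.0688 by edgeR).

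The gene lies on the minus strand of chromosome 6 at 7675169 to 7693254 of the mm10 build (ENSMUSG00000029752.12), and no other gene overlaps its exons. Its promoter is shown because it holds the pair of motifs that is known, from the human ASNS gene, to carry the response to a lack of amino acids. The motif TGATGNAA, bound by ATF4 with C/EBP partners, and the motif GTTACA were searched on both strands in the RefSeq promoters, each 250 bases before to 50 bases after a start, on GRCm38.p6. Of 32817 such promoters 3.97% held TGATGNAA, 8.25% held GTTACA and 0.695% held both. Asns held both on its own strand, TGATGNAA at positions -23 to -16 and GTTACA at -3 to 3, counted from 1 at the first base of the RefSeq transcript with no position 0. GENCODE places the first base of the gene 45 bases further upstream. Of the other members with a RefSeq promoter, Got1 held TGATGNAA on the opposite strand at -102 to -95, and Glul, Glud1, Got2, Gpt2 and both promoters of Bcat1 held neither motif in this window. Asnsd1 and Gls2 had no entry. A match is a match of letters, and binding was not measured. The 30 bases around each match follow, 5′ to 3′ on the gene's strand, at chr6:7693205-7693234 for Asns and chr19:43524689-43524718 for Got1, both minus strand, with the motifs in capitals.
Asns: caTGATGAAActtcccgcacgcGTTACAga
Got1: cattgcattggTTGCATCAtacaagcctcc

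Asnsd1, which encodes a protein with an asparagine synthetase domain, had 0 counts in all 10 libraries (ENSMUSG00000026095.15, minus strand of chromosome 1, 53344617 to 53352752). In GENCODE M21 97.6% of its exonic bases lie inside the bodies of Asdurf and Gm28551, on the same strand of chromosome 1, and 56.5% lie inside their exons. Asdurf was also listed at 0 throughout and Gm28551 had 0 to 3 counts. The whole locus was therefore nearly empty in the table, and this 0 is reported as listed, not as a lack of the transcript. The sources used here do not give how reads on shared exons were counted, or whether strand was used.

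Glul, glutamine synthetase, was higher on the deficient diet, with overlap. It stood at 157, 220, 196, 196 and 173 CPM in arginine-deficient replicates 1 to 5 and at 146, 139, 124, 133 and 179 CPM in normal-diet replicates 1 to 5. The gene (ENSMUSG00000026473.16) is protein-coding like the other members, with 3.49% of its exonic bases inside other genes. It lies at 153899944 to 153909723 on the plus strand of chromosome 1 of mm10. In 3 deficient tumours it exceeded every normal-diet tumour, and all 5 exceeded the normal-diet mean. The log2 fold change was 0.38 (SE 0.13; edgeR adjusted p = 0.512). Glul is known to be made in skeletal muscle and in macrophages. Without the 3 muscle-rich libraries its log2 fold change was 0.32 (SE 0.16; edgeR adjusted p = 0.646). With the muscle sum as a covariate it was 0.38 (SE 0.13; edgeR adjusted p = 0.454). Normal-diet replicate 5 held the highest normal-diet value, and without it the log2 fold change was 0.47.

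Gls2, the glutaminase of liver type that works in mitochondria and is known as a target of p53, was lower in every arginine-deficient tumour. It lies at 128194457 to 128210004 on the plus strand of chromosome 10 (ENSMUSG00000044005.13), with 2.79% of its exonic bases inside a gene on the opposite strand. Its counts were few, from 72 to 181 per library. The arginine-deficient replicates 1 to 5 held 5.39, 5.57, 5.75, 5.74 and 5.19 CPM, against 9.01, 6.18, 7.71, 8.23 and 9.67 CPM in normal-diet replicates 1 to 5. The coefficient of variation was 4.32% on the deficient and 16.4% on the normal diet. At so few counts each value carries counting noise, which was not separated from differences between tumours. The small spread on the deficient diet therefore does not show how alike those tumours were. The gap between the diets was narrow, with 5.75 CPM the highest deficient and 6.18 CPM the lowest normal-diet value. It may also lie within counting noise. The log2 fold change was -0.56 (SE 0.16; edgeR adjusted p = 0.403), a ratio of 0.679. DESeq2 and limma voom gave adjusted p of 0.0595 and 0.0574.

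The balance of the enzyme that makes glutamine and one that breaks it down was taken as a ratio within each library, which no scaling between libraries can shift. The log2 ratio of Glul to Gls2 was 4.86, 5.30, 5.09, 5.09 and 5.06 in arginine-deficient replicates 1 to 5 and 4.02, 4.495, 4.01, 4.02 and 4.21 in normal-diet replicates 1 to 5. The diets did not overlap, and their means differed by 0.93. Ratios of this kind are descriptions and carry no test.

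**Figure D3:**
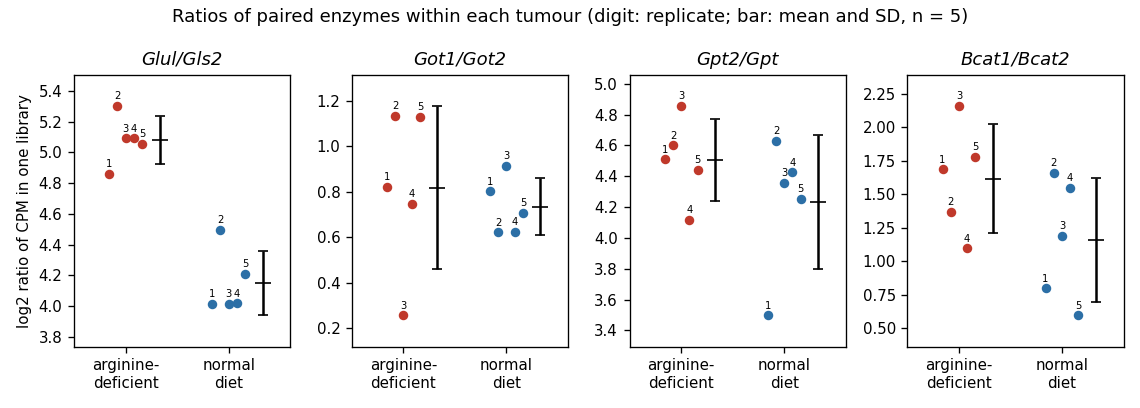
Log2 ratio of the CPM of paired enzymes within each library (y axis, not starting at 0) in arginine-deficient (red, left) and normal-diet tumours (blue, right), with the mean and SD. The ratio of Glul to Gls2 separates the diets, at 4.86 or more on the deficient and 4.495 or less on the normal diet, and the other ratios overlap.

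Glud1, mitochondrial glutamate dehydrogenase, was the steadiest of the enzymes (ENSMUSG00000021794.16, plus strand of chromosome 14, 34310727 to 34345265). It held 451, 462, 452, 437 and 446 CPM in arginine-deficient replicates 1 to 5 and 451, 489, 470, 457 and 481 CPM in normal-diet replicates 1 to 5. Its coefficients of variation were 2.03% and 3.43%, the smallest among the 8 on each diet. The difference was -0.06 log2 units (SE 0.09; edgeR adjusted p = 0.998).

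The aspartate transaminases Got1, in the cytosol, and Got2, in mitochondria, are enzymes of the malate-aspartate shuttle, and aspartate is the backbone that Asns uses. Got1 (ENSMUSG00000025190.13) lies at 43499752 to 43524605 on the minus strand of chromosome 19. Got2 (ENSMUSG00000031672.8) lies at 95864134 to 95888547 on the minus strand of chromosome 8, with 8.997% of its exonic bases inside a gene on the opposite strand. Got1 stood at 225, 250, 150, 180 and 243 CPM in arginine-deficient replicates 1 to 5 and at 187, 147, 183, 151 and 219 CPM in normal-diet replicates 1 to 5. The deficient tumours split, with replicates 1, 2 and 5 above every normal-diet tumour and replicates 3 and 4, the muscle-rich ones, inside the normal-diet range. The difference was 0.24 log2 units (SE 0.16; edgeR adjusted p = 0.903), and 0.38 (SE 0.14; edgeR adjusted p = 0.487) without the 3 muscle-rich libraries.

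Got2 stood at 127, 114, 126, 108 and 111 CPM in arginine-deficient replicates 1 to 5 and at 107, 95.6, 97.1, 98.1 and 134 CPM in normal-diet replicates 1 to 5. A single normal-diet tumour, replicate 5, was the highest of all 10, while the other normal-diet tumours lay below every deficient one. The difference was 0.14 log2 units (SE 0.11; edgeR adjusted p = 0.948), and 0.24 without normal-diet replicate 5 (adjusted p = 0.593 by edgeR). The log2 ratio of Got1 to Got2 averaged 0.82 ± 0.36 on the deficient and 0.73 ± 0.12 on the normal diet (SD, n = 5 each). Its lowest value, 0.26, was that of arginine-deficient replicate 3.

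Gpt2, the mitochondrial alanine transaminase and a known target of ATF4, was higher on the deficient diet. Arginine-deficient replicates 1 to 5 held 107, 112, 91.6, 91.4 and 128 CPM, against 68.9, 76.5, 78.5, 68.0 and 92.9 CPM in normal-diet replicates 1 to 5. All deficient tumours lay above 4 of the normal-diet tumours, and normal-diet replicate 5 reached past deficient replicates 3 and 4. Its gene (ENSMUSG00000031700.11) lies at 85492576 to 85527560 on the plus strand of chromosome 8. The log2 fold change was 0.46 (SE 0.13; edgeR adjusted p = 0.368). The cytosolic alanine transaminase Gpt, not in the list, was scarce, with 58 to 148 counts per library, and differed by 0.17 log2 units (SE 0.25; edgeR adjusted p = 0.998). The log2 ratio of Gpt2 to Gpt averaged 4.504 ± 0.27 on the deficient and 4.23 ± 0.43 on the normal diet (SD, n = 5 each).

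Bcat1, the cytosolic transaminase of leucine, isoleucine and valine, stood at 143, 153, 118, 137 and 191 CPM in arginine-deficient replicates 1 to 5 and at 102, 112, 109, 105 and 129 CPM in normal-diet replicates 1 to 5. All 5 deficient tumours exceeded the normal-diet mean and 4 exceeded every normal-diet tumour. The gene (ENSMUSG00000030268.17) lies at 144993835 to 145076184 on the minus strand of chromosome 6, with 5.85% of its exonic bases inside other genes, antisense ones among them. The log2 fold change was 0.41 (SE 0.13; edgeR adjusted p = 0.465). Its mitochondrial counterpart Bcat2, outside the list, had means of 50.02 ± 14.9 CPM in deficient and 52.8 ± 20.7 CPM in normal-diet tumours (SD, n = 5 each), a log2 fold change of -0.08 (SE 0.28; edgeR adjusted p = 0.998), but 28.0% of its exonic bases lie inside an antisense gene. The log2 ratio of Bcat1 to Bcat2 averaged 1.62 ± 0.40 on the deficient and 1.16 ± 0.46 on the normal diet (SD, n = 5 each) and overlapped.

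Across the 10 tumours Gpt2 and Bcat1 followed each other more closely than any other gene followed either. Likeness was the mean absolute difference of log2 CPM, each gene centred on its own mean of 10 libraries. Among 11484 other genes averaging at least 2 CPM, Bcat1 was nearest to Gpt2 and Gpt2 nearest to Bcat1, with a mean difference of 0.072, where the median gene lay at 0.33 from Gpt2 and at 0.32 from Bcat1. Of 2 options added after the data were examined, centring within each diet made each the second nearest of the other, at 0.066, and leaving out the 3 muscle-rich libraries made each again the nearest, at 0.055. The next genes were the same 3 for both: Slc7a1, the main carrier of arginine and lysine into cells, Gars, the glycyl-tRNA synthetase, and Aldh18a1, which starts proline synthesis from glutamate. Their distances from Gpt2 were 0.086, 0.090 and 0.10, and from Bcat1 they were 0.088, 0.083 and 0.089. All 5 of these genes were highest in arginine-deficient replicates 1, 2 and 5. This is a description of 10 libraries that share depth and tissue makeup, with no test.

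**Figure D4:**
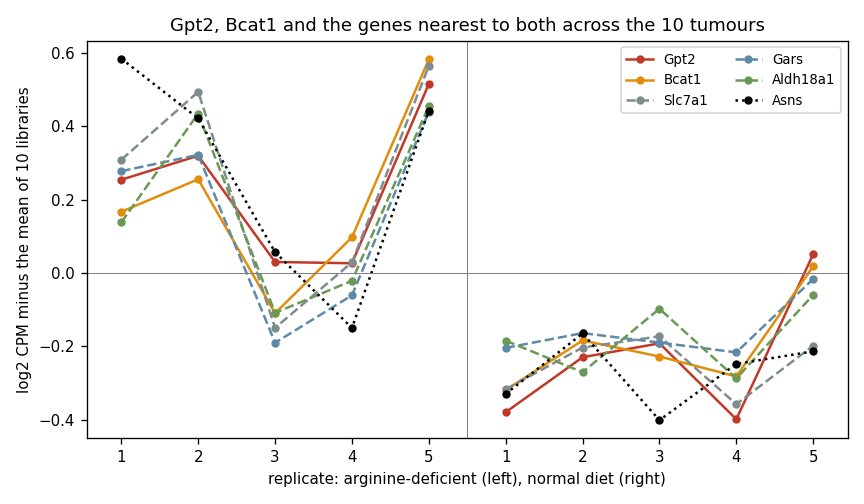
Log2 CPM minus the mean of the 10 libraries (y axis) for Gpt2, Bcat1, the genes nearest to both, and Asns (dotted) in each tumour, arginine-deficient on the left and normal-diet on the right of the line. Lines join the points of 1 gene, and replicates have no order. Arginine-deficient replicates 1, 2 and 5 are the highest tumours of Gpt2 and Bcat1, which differ from each other by 0.072 on average.

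Asns did not rank Gpt2 or Bcat1 among its nearest 4 genes, but they came 17th and 44th of 11484. Its nearest were Prr5l, a regulator of mTORC2 (mean difference 0.079, log2 fold change 0.43), the sphingosine-1-phosphate receptor gene S1pr3 (0.11, log2 fold change 0.62), the arginyl-tRNA synthetase gene Rars (0.12, log2 fold change 0.50) and Slc35b1, a nucleotide carrier of the endoplasmic reticulum (0.12, log2 fold change 0.44). Prr5l averaged 6.66 CPM in deficient and 4.93 CPM in normal-diet tumours, and S1pr3 6.86 and 4.46 CPM. Nearest to Glul were Mocos, the Wnt receptor gene Fzd7, Sowahc and Cmss1, at 0.10 to 0.12, with log2 fold changes of 0.19, 0.36, 0.31 and 0.52; 41.5% of the exonic bases of Cmss1 lie inside other genes. Nearest to Gls2 were the ganglioside synthase gene St3gal5, Sspn, Msi1 and Arap3, at 0.11 to 0.12, all lower on the deficient diet, with log2 fold changes of -0.59, -0.41, -0.41 and -0.57.

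Among the normal-diet tumours replicate 5, the smallest library, held the highest value of 6 of the 8 enzymes: Gls2, Glul, Got1, Got2, Gpt2 and Bcat1. Among the deficient tumours replicate 4 held the lowest value of 4 of the 8, Asns, Glud1, Got2 and Gpt2, and replicate 3 that of Got1 and Bcat1. Both are rich in muscle transcripts, and the part of muscle in these levels was not tested beyond the fits without these libraries and with the muscle sum as a covariate.

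Levels of the enzymes were ordered as CPM per kilobase of merged exons. Asns led with 193 ± 38.9 on the deficient and 130 ± 8.44 on the normal diet (SD, n = 5 each). Glud1 followed with 107 ± 2.17 and 111 ± 3.82, then Got1 with 82.6 ± 16.9 and 69.8 ± 11.5, and Glul with 56.6 ± 7.26 and 43.4 ± 6.31, each with the deficient diet given before the normal diet. In the same order, Got2 had 24.3 ± 1.85 and 22.05 ± 3.32, Gpt2 18.8 ± 2.74 and 13.6 ± 1.78, and Bcat1 15.9 ± 2.90 and 11.98 ± 1.14. Gls2 came last with 1.59 ± 0.0688 and 2.35 ± 0.385. Over all 10 tumours the ranges of Got1 and Glul overlapped, as did those of Got2 and Gpt2 and those of Gpt2 and Bcat1, and the ranges of the other neighbours did not.

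The remaining genes of these pathways were taken from lists without the 9 enzymes. By edgeR none passed over all genes in any list but that of ATF4 targets. Some genes stand in several lists, and Nars, Psat1, Aldh18a1, Slc1a5 and Slc3a2 are also in that of ATF4 targets. Of all tested genes 6.74% had an unadjusted p under 0.05 and 1.65% separated the diets. DESeq2 called 0.896% of the genes it adjusted and limma voom called 2.88%. Of 18 tested genes that use glutamine or asparagine 12 were higher and 6 lower (median log2 fold change 0.09), with 3 at an unadjusted p under 0.05, 0 called by DESeq2 and 1 by limma voom. Nars, the asparaginyl-tRNA synthetase, ranged from 409 to 664 CPM in deficient and from 403 to 475 CPM in normal-diet tumours. Gfpt1, which takes nitrogen from glutamine for hexosamines, differed by 0.28 log2 units (SE 0.12), and Aga, a lysosomal enzyme that frees asparagine from glycoproteins, by -0.27 (SE 0.10).

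Of 7 other transaminases tested 4 were higher and 3 lower (median 0.11), with 2 at an unadjusted p under 0.05, 0 called by DESeq2 and 1 by limma voom. Psat1, the phosphoserine transaminase, did not overlap, at 437 to 526 CPM on the deficient and 363 to 431 CPM on the normal diet (a difference of 0.30 log2 units, SE 0.10; edgeR adjusted p = 0.514). Agxt2 ran from 0.218 to 1.47 CPM in deficient and from 0.589 to 4.02 CPM in normal-diet tumours. Its lowest values rest on few counts, since 3 counts make 0.0951 CPM in the largest library and 0.25 CPM in the smallest. Of its exonic bases 9.64% lie inside other genes. Oat, Aadat and Got1l1 were listed at 0 in all libraries, as were 4263 genes of the table in total. Such values are reported as listed, not as a lack of the transcript.

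Among the 5 tested partners of Got1 and Got2 in the malate-aspartate shuttle 1 was higher and 4 were lower (median -0.05), with 1 at an unadjusted p under 0.05. That gene was Mdh1, the cytosolic malate dehydrogenase, lower in every deficient tumour, at 117 to 134 CPM on the deficient and 141 to 170 CPM on the normal diet (a difference of -0.31 log2 units, SE 0.09; edgeR adjusted p = 0.387). DESeq2 and limma voom each called it. The mitochondrial malate carrier Slc25a11 and the aspartate-glutamate carrier Slc25a12 differed by -0.13 (SE 0.10) and 0.08 log2 units (SE 0.13).

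Carriers of glutamine, glutamate and aspartate were higher in 11 of 15 and lower in 4 (median 0.24), with 4 at an unadjusted p under 0.05, all higher, 0 called by DESeq2 and 3 by limma voom. The lysosomal glutamine carrier Slc38a7, the glutamine importer Slc1a5 and Slc3a2, the shared heavy chain of amino acid exchangers, were higher by 0.47 (SE 0.17), 0.46 (SE 0.18) and 0.43 log2 units (SE 0.18). Slc7a5, the light chain that imports leucine, was listed at 0, which is likewise not taken as a lack of the transcript. Of 15 genes that use aspartate or glutamate 10 were higher and 5 lower (median 0.06), with 2 at an unadjusted p under 0.05, 0 called by DESeq2 and 2 by limma voom. In that list Aldh18a1 differed by 0.38 log2 units (SE 0.13; unadjusted p = 0.0126 by edgeR). Aspa, which splits N-acetylaspartate, differed by -0.35 log2 units (SE 0.17; unadjusted p = 0.058 by edgeR).

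Genes of branched-chain amino acid breakdown, Bcat2 among them, were lower in 12 of 16 and higher in 4 (median -0.09). Of the 16, 1 had an unadjusted p under 0.05 and 0 were called by DESeq2 or limma voom. Mccc2, a subunit of the leucine pathway's carboxylase, differed by -0.36 log2 units (SE 0.15), Bckdk, the kinase that restrains the pathway, by -0.23 (SE 0.11), and Dld, a subunit shared by several dehydrogenases, by 0.18 (SE 0.13). Of 15 genes that carry glutamate's carbon into and around the tricarboxylic acid cycle 8 were higher and 7 lower (median 0.04), with 1 at an unadjusted p under 0.05, 0 called by DESeq2 and 1 by limma voom. Idh1, the cytosolic isocitrate dehydrogenase, differed by -0.37 log2 units (SE 0.17), the malic enzyme Me1 by 0.30 (SE 0.21), and Dld is named above. ATF4 targets were higher in 41 of 43 tested and lower in 2 (median 0.30), where 50.3% of all tested genes were higher. An unadjusted p under 0.05 was reached by 17, all of them higher, against 3.54% of tested genes. Pycr1 and Aldh1l2 were the 2 that passed over all genes (adjusted p = 0.0158 for each by edgeR), as did 0.0541% of tested genes. DESeq2 called the same 2 and limma voom called 18 of the 43, against 0.896% and 2.88% of all genes. Omitting 1 library at a time ended both edgeR calls in 6 of 10 cases, when the library was replicate 1, 2 or 5 of the deficient or replicate 1, 2 or 3 of the normal diet. Without the 3 muscle-rich libraries 4 of the 43 passed, against 0.139% of all genes. Slc7a1, next by p in that list, did not overlap, at 299 to 491 CPM in deficient and 259 to 294 CPM in normal-diet tumours (edgeR adjusted p = 0.337). That list had already stood out in earlier results of these data, so it is no independent support.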

How the data were processed

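Total RNA of 10 tumours was sequenced. The deposited values were raw read counts of each gene. The submitters' processing notes name FastQC, STAR, featureCounts and the build mm10. Their versions, settings and use of strand are not stated in them. Libraries titled Arg were read as the arginine-deficient diet from the series' design text. They were taken as separate animals, and no pair agreed within sampling noise. Where a mouse gave more than 1 library the p-values would measure technical spread, which the labels do not settle. Symbols, positions and merged exon lengths came from GENCODE M21 on the same build (33 identifiers had no symbol), and promoters from RefSeq on GRCm38.p6.

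The test was edgeR 4.0.16 quasi-likelihood (R 4.3.3) with TMM factors and filterByExpr defaults (minimum count 10, minimum total 15), diet as its only term and a threshold of 0.05; SE was taken by dividing the size of the log2 fold change by the root of F. It kept 99.9% of counts and was tested on simulated data with 200 changed genes. Profiles used log2 CPM with a prior count of 2. Alternatives were DESeq2 1.42.0, limma 3.58.1 voom, other size factors and filters, a replicate block, leaving out libraries, and a muscle covariate. The text names all members and up to 3 genes of smallest p per pathway list. It also names the 4 nearest genes of each member with an unadjusted p under 0.05. Partner enzymes of the ratios and some of the genes at 0 are named as well. Of the genes and ratios so taken, 1 gene and 1 ratio are not reported here. The members and lists were chosen with earlier results of these data known.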

Additional observations from a re-analysis of the deposited data

How the results depend on the processing

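Under the 18 alternatives each enzyme kept its direction, and in 138 of 144 values its side of the threshold. The 6 exceptions were gains: Asns passed by DESeq2 (log2 fold change 0.57), by limma voom (0.64) and without the 3 muscle-rich libraries (0.76), and by limma voom Glul (0.49), Gpt2 (0.54) and Bcat1 (0.55) passed. Leaving out 1 library at a time, log2 fold changes ran from 0.48 to 0.66 for Asns, -0.64 to -0.49 for Gls2, 0.32 to 0.47 for Glul, -0.08 to -0.05 for Glud1, 0.17 to 0.34 for Got1, 0.10 to 0.24 for Got2, 0.38 to 0.54 for Gpt2 and 0.30 to 0.49 for Bcat1, and no member passed in these fits. The count of all genes that passed, 7, was 127 by DESeq2, 373 by limma voom, 18 without the muscle-rich libraries and 24 with the muscle covariate, and ran from 0 to 16 when leaving out 1 library. Omitting normal-diet replicate 1 or 3 left 0, and omitting normal-diet replicate 2 or deficient replicate 1, 2 or 5 left 2. Omitting deficient replicate 3 gave 16, and normal-diet replicate 5 gave 15. The cause was not tested. Replicate numbers did not pair the libraries (correlations of same-numbered libraries from -0.35 to 0.18); with the replicate block 1 gene passed, which was neither Pycr1 nor Aldh1l2, and Asns had a log2 fold change of 0.54. CPM without TMM factors moved none of 16 mean levels by more than 1 SD. Gls2 has 72 to 181 counts per library, which limits its precision.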
